A study of Mus musculus with 6 samples.

Results

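The mitochondrial ribosome makes the proteins that the mitochondrial genome encodes, all of them subunits of the respiratory chain and of ATP synthase. Its proteins are encoded in the nucleus, made in the cytosol and imported, and they assemble on 2 RNAs of the mitochondrial genome into a large subunit, which forms the peptide bond, and a small subunit, which decodes the messenger RNA. Skeletal muscle relies on this machinery for its oxidative capacity. The genes described here are those whose symbol is Mrpl (large subunit) or Mrps (small subunit) with a number and at most 1 letter, leaving out symbols marked as pseudogenes. This rule uses the name and no measured value, but the list was chosen with earlier results of these data known. The rule found 78 genes among the 55995 features of the table, 49 of the large and 29 of the small subunit. All 78 reached the mean of 1 TPM over the 6 libraries that was required for testing, as did 11938 features in all. TPM express a level per transcript length and as a part of a fixed library total.

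The libraries came from the gastrocnemius, a mostly fast-twitch calf muscle, of NSG mice (NOD/SCID/IL2Rγ-null), an immunodeficient strain. Per the labels, the mice of both groups carried a tumour of WT MDA-MB-231 cells, a human breast cancer line, placed under the skin of the left flank with Matrigel. In the radiotherapy group (3 libraries) a tumour of about 800 mm3 was exposed locally, once, to X-rays (10 Gy in total, 6 MV, 6 Gy/min), and 3 days afterwards the gastrocnemius of the unexposed flank was collected. The other 3 libraries are labelled control, with tumour size and day of sampling not stated. The age and sex of the mice are not stated either. The labels do not say whether each library is a different mouse, so p-values reflect only how far these samples scatter, and that scatter may be technical. In whole muscle, fewer cells of a type and less RNA per cell cannot be told apart.

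Among the radiotherapy libraries, replicate 3 differed from the others in immune cell genes and in markers of other cell types. The summed level of 6 neutrophil markers was 10.5, 18.4 and 2925 TPM in radiotherapy replicates 1, 2 and 3, against 72.8 to 183 TPM in control. That of 8 macrophage markers was 62.2 to 372 TPM in radiotherapy and 62.3 to 191 TPM in control libraries, again highest in radiotherapy replicate 3. The summed level of 12 muscle fibre markers was 106239 to 180523 TPM in radiotherapy and 122449 to 141799 TPM in control libraries and lowest in radiotherapy replicate 3. The 5 satellite cell markers summed to 9.01 to 18.3 TPM in radiotherapy and 31.4 to 89.5 TPM in control libraries, without overlap. Much of the control sum was Myod1, at 4.31, 2.03 and 0.71 TPM in radiotherapy and 17.5, 67.2 and 16.2 TPM in control libraries. Vcam1 did not overlap either, but Cdh15 did (6.01 to 16.5 and 13.2 to 22.1 TPM), and 2 of the 5 markers averaged under 1 TPM. The summed levels of endothelial, fibroblast, tendon, adipocyte, erythroid and Schwann cell markers overlapped between the groups, and no marker of any list was at 0 in every library. Single markers could still separate on TPM as deposited. Of 7 fibroblast markers, 3 (Col3a1, Col1a1 and Pi16) lay above every control in all radiotherapy libraries and 0 below, beside 1.73% and 19.3% of all features. Of 5 erythroid markers 2 lay above and 0 below, and of 7 endothelial markers 1 lay above and 1 below. Of the tested tendon, adipocyte and Schwann cell markers 0 separated. Radiotherapy replicates 1, 2 and 3 were at 145, 188 and 23.9 TPM for Schwann cell and 54.8, 41.4 and 8.8 TPM for tendon markers. They were at 137, 120 and 270 TPM for endothelial and 332, 303 and 608 TPM for adipocyte markers. The slow myosin Myh7 stood at 177, 362 and 32.6 TPM in radiotherapy replicates 1, 2 and 3, against 203, 8.61 and 251 TPM in control replicates 1, 2 and 3. The part of these differences in the results below was not tested, and the counts and medians of the members and of the other gene lists are also given without radiotherapy replicate 3.

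Mitochondrial ribosomal protein genes were expressed well above the typical gene in these muscles. The median over the 78 genes was a mean level of 47.96 TPM, against 6.78 TPM over all 11938 tested features. The level was 100 TPM or more for 18 genes, between 20 and 100 TPM for 42 and under 20 TPM for 18. Highest was Mrpl42, a large subunit protein with no bacterial counterpart, with 585, 629 and 355 TPM in radiotherapy and 516, 504 and 609 TPM in the control libraries. Mrps21, the counterpart of bacterial S21, was the highest small subunit gene, at 444, 399 and 345 TPM in radiotherapy and 357, 569 and 310 TPM in control libraries. The groups overlapped for both genes. The lowest member was Mrpl19, with a mean of 2.30 TPM.

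No member passed the test between radiotherapy and control muscle. With limma on log2(TPM + 1) and adjustment over all 11938 tested features, 0 of 78 genes were lower and 0 higher at an adjusted p under 0.05, beside 0.0168% of all tested features lower and 0.0419% higher. The smallest adjusted p of a member was 0.286. At an unadjusted p under 0.05, limma found 6 members lower (7.69%), beside 13.3% of all features, and 0 higher, beside 1.18% of all features. In 18 members (23.1%) all 3 radiotherapy libraries lay below every control library, beside 19.3% of all features, and in 2 members (2.56%) all 3 lay above, beside 1.73%. Overlap was judged here and below on TPM as deposited only, and another scaling of the libraries can change it. A log2 change below 0 was found in 64 members (82.1%), beside 78.5% of all features. These shares were near those of all genes or below them and are no result about the list.

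The median log2 change of the 78 genes, radiotherapy minus control, was -0.28, beside -0.36 for all tested features, a difference of 0.08. The large subunit had a median of -0.30 and the small subunit of -0.26. The individual changes ran from -1.06 to 0.52, with standard errors of 0.22 to 0.64. The sign of the list depended on how the libraries were put on a common scale and most genes of the table shifted with it. With median-of-ratios scaling the median of all features was -0.02, in place of -0.36, and that of the members became 0.13, with 26 instead of 64 members below 0. With quantile normalisation the median of all features was -0.02, that of the members 0.14, and 28 members lay below 0. Relative to the median of all features the members stood 0.08 higher as deposited, and 0.15 higher under either of these scalings. That margin was 0.24 without control replicate 2 and -0.01 without control replicate 1.

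**Figure D1:**
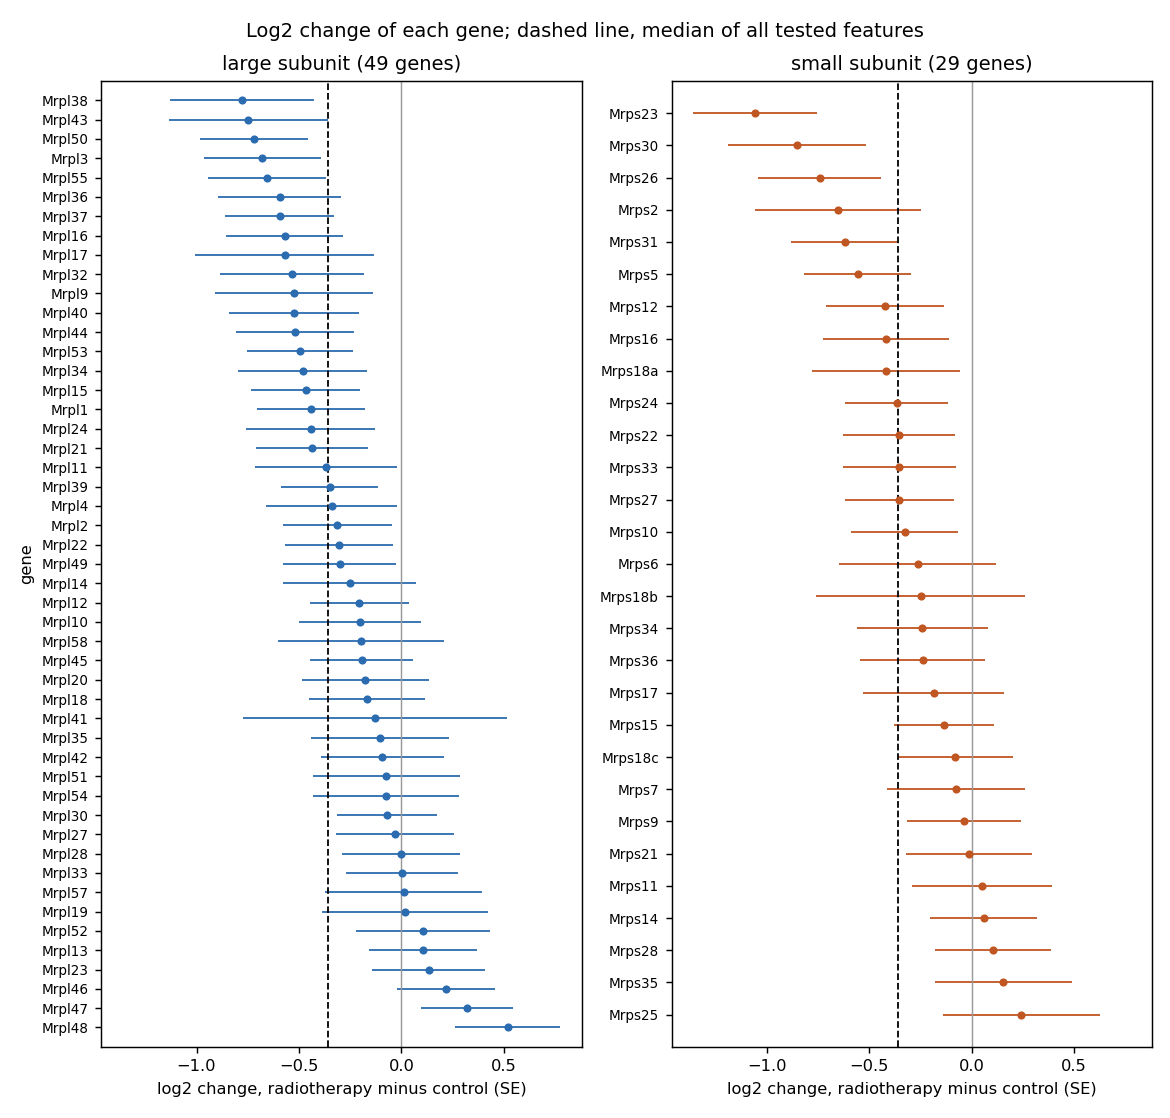
Log2 change (radiotherapy minus control, log2(TPM + 1) scale) of each of the 49 large and 29 small subunit genes, with bars for the standard error of the limma fit. The dashed line is the median of all tested features, -0.36; 48 of 78 genes lie to its right and 30 to its left, and with median-of-ratios or quantile scaling the median of the genes moves above 0.

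The libraries did not divide cleanly by treatment. Relative to the control mean of each gene, the median over members was -0.31, -0.44 and -0.08 log2 units in radiotherapy replicates 1, 2 and 3, beside -0.53, -0.61 and -0.01 for all features. In control replicates 1, 2 and 3 it was -0.08, 0.25 and -0.17, beside 0.12, -0.05 and -0.08 for all features. Radiotherapy replicates 1 and 2 therefore held the low values, as they did for genes in general, and radiotherapy replicate 3 lay within the control range. Of the 78 members, 47 lay below every control library in radiotherapy replicate 1, 53 in replicate 2 and 30 in replicate 3. The shares were 60.3%, 67.9% and 38.5%, beside 63.2%, 67.6% and 30.9% of all features.

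Control replicate 2 was the library in which these genes stood highest. It held the highest value of the 6 libraries for 52 of the 78 members (66.7%), beside 19.8% of all tested features, and the lowest value for 0 members. In the large subunit this held for 30 of 49 genes and in the small subunit for 22 of 29. Cytosolic ribosomal protein genes were also often highest in that library (42 of 79), and the count was 25 of 83 for nuclear-encoded respiratory chain genes. Without control replicate 2 the median log2 change of the members was -0.13 in place of -0.28, while that of all features was -0.38. Control replicate 2 also had the lowest Myh7 level of the 6 libraries, and its part in this was not tested.

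**Figure D2:**
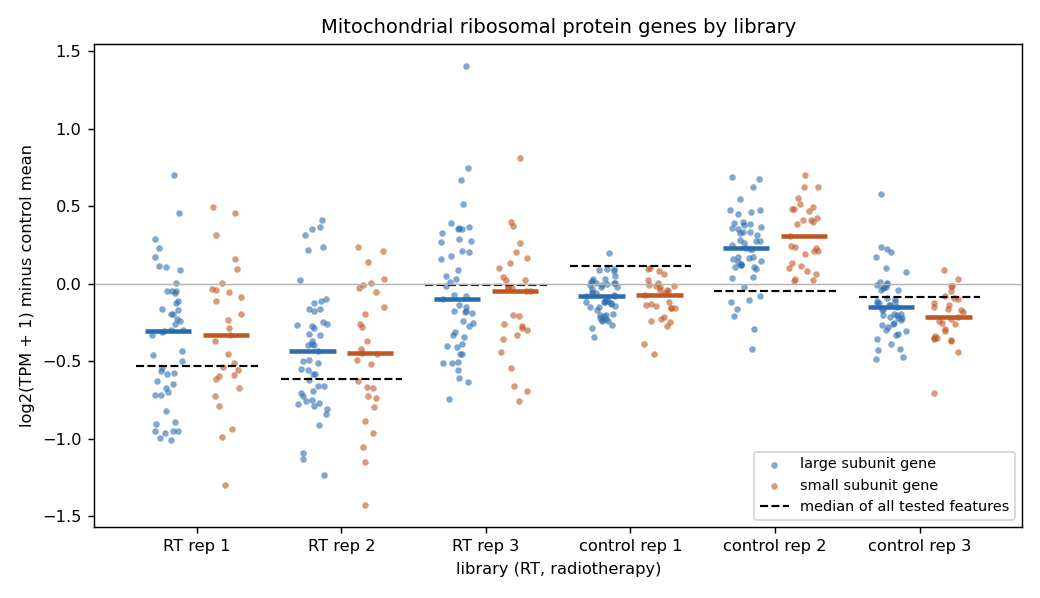
Level of each gene in each library as log2(TPM + 1) minus the mean of the 3 control libraries, for large (blue) and small (orange) subunit genes. Thick bars are subunit medians and dashed lines the median of all tested features; radiotherapy replicates 1 and 2 lie low together with all genes, and control replicate 2 lies high (0.23 and 0.31 for large and small subunit) while all genes do not (-0.05).

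The proportion of large to small subunit transcripts was similar in all libraries. The summed level of the large subunit genes was 3352, 3200 and 4004 TPM in radiotherapy replicates 1, 2 and 3, against 3715, 4749 and 3605 TPM in the control replicates. For the small subunit the sums were 1839, 1669 and 1908 TPM in radiotherapy, against 1944, 2759 and 1797 TPM in control libraries. The ratio of large to small was 1.82, 1.92 and 2.10 in radiotherapy and 1.91, 1.72 and 2.01 in control libraries, with means of 1.95 ± 0.140 and 1.88 ± 0.145 (SD, n = 3 each). The ranges overlapped. Together the 78 genes took 0.532% ± 0.0534 of all TPM in radiotherapy and 0.619% ± 0.115 in control libraries (SD, n = 3 each). A name does not always give the subunit: Mrps18a and Mrps30 encode proteins that sit in the large subunit of the mammalian ribosome, and Mrps36 encodes a protein now placed in the 2-oxoglutarate dehydrogenase complex. With these 2 moved and Mrps36 left out, the medians were -0.30 for 51 large and -0.26 for 26 small subunit genes.

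**Figure D3:**
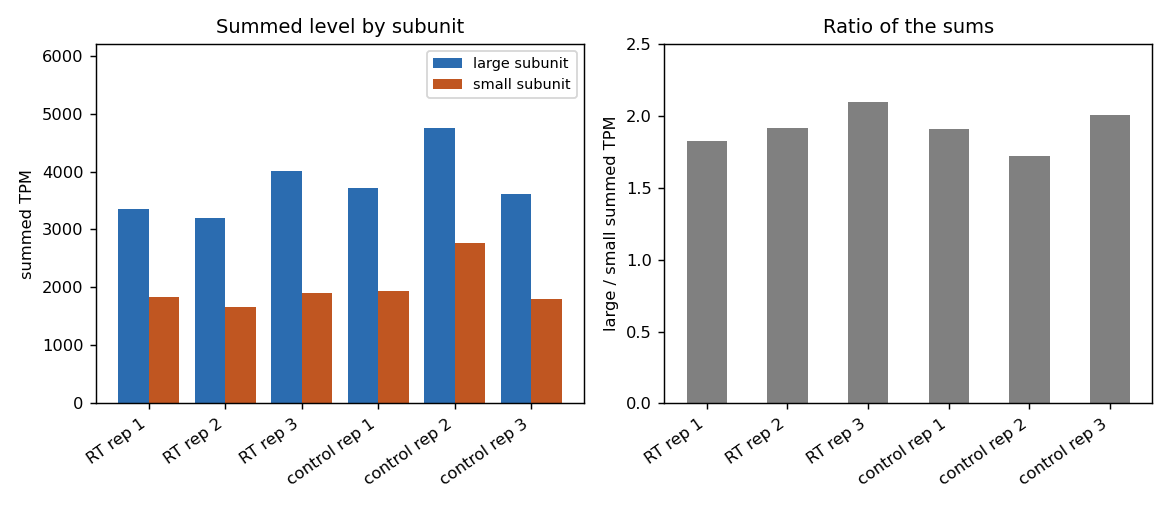
Left, summed TPM of the 49 large and 29 small subunit genes in each library; right, the ratio of the sums. The ratio lies between 1.82 and 2.10 in radiotherapy and between 1.72 and 2.01 in control libraries.

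Among small subunit genes, Mrps23 had the lowest log2 change. Its level was 83.6, 61.5 and 98.5 TPM in radiotherapy libraries, against 178, 193 and 135 TPM in the control replicates. The groups did not overlap, and the means were 81.2 ± 18.6 and 169 ± 30.3 TPM (SD, n = 3 each), a log2 change of -1.06 (SE 0.30, limma adjusted p = 0.286). Mrps23 is found in mitochondrial ribosomes and has no bacterial counterpart. The same is true of Mrps26, at 30.1, 25.3 and 34.2 TPM in radiotherapy and 46.3, 67.2 and 40.8 TPM in control libraries, again without overlap (log2 change -0.74, SE 0.30, adjusted p = 0.335). Mrps30, named for the small subunit but part of the large, was at 6.07, 7.38 and 14.1 TPM in radiotherapy and 16.7, 17.8 and 14.8 TPM in control libraries. Radiotherapy replicate 3 lay just below the lowest control library, and the log2 change was -0.85 (SE 0.34, adjusted p = 0.334). The log2 changes of these 3 genes stayed below 0 under every scaling tried, but their lack of overlap was seen on TPM as deposited only.

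The small subunit decodes the messenger RNA. Mrps12, the counterpart of bacterial S12 at the decoding centre, was at 36.1, 35.2 and 53.3 TPM in radiotherapy and 54.2, 63.0 and 48.8 TPM in control libraries, and the groups overlapped through radiotherapy replicate 3. Mrps5, the counterpart of bacterial S5, which affects the accuracy of decoding in bacteria, was at 38.5, 35.5 and 41.9 TPM in radiotherapy and 56.6, 67.5 and 48.7 TPM in control libraries. Its groups did not overlap (log2 change -0.56, SE 0.26, adjusted p = 0.372). Mrps34, which the small subunit needs for its stability, was at 120, 91.7 and 102 TPM in radiotherapy and 119, 172 and 90.3 TPM in control libraries, with overlap. Mrps27, a pentatricopeptide repeat protein, was at 9.96, 9.94 and 14.3 TPM in radiotherapy and 15.5, 16.1 and 12.5 TPM in control libraries, and radiotherapy replicate 3 again lay among the controls. Mrps15, among the 3 highest small subunit genes, was at 124, 129 and 108 TPM in radiotherapy and 131, 141 and 123 TPM in control libraries.

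The 3 relatives of bacterial S18 were not all highest in the same library. Mrps18b had 59.2, 50.9 and 168 TPM in radiotherapy libraries, against 81.7, 140 and 74.9 TPM in control. Mrps18a was at 126, 115 and 177 TPM in radiotherapy and 151, 283 and 143 TPM in control libraries. Mrps18c was at 43.7, 54.9 and 59.5 TPM in radiotherapy and 49.5, 68.7 and 49.7 TPM in control libraries. Radiotherapy replicate 3 was thus the highest library for Mrps18b alone, and control replicate 2 for Mrps18a and Mrps18c. All 3 overlapped between the groups, with log2 changes of -0.25, -0.42 and -0.08. Mrps36 was at 123, 103 and 72.2 TPM in radiotherapy and 97.6, 136 and 114 TPM in control libraries, also with overlap. The small subunit genes with the highest log2 changes were Mrps25 (0.24), Mrps35 (0.16) and Mrps28 (0.11). Mrps25 was at 20.5, 19.1 and 19.0 TPM in radiotherapy and 16.4, 27.2 and 9.62 TPM in control libraries, and Mrps35 at 39.4, 26.6 and 28.1 TPM in radiotherapy and 19.9, 38.7 and 27.4 TPM in control libraries. Mrps28 was at 92.0, 101 and 103 TPM in radiotherapy and 82.9, 121 and 76.3 TPM in control libraries. All 3 had their radiotherapy values inside a wide control range or across its edge.

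In the large subunit, Mrpl38, Mrpl43 and Mrpl50 had the lowest log2 changes. All 3 are proteins that bacterial ribosomes lack. Mrpl50 was at 11.9, 14.4 and 16.6 TPM in radiotherapy and 24.0, 20.6 and 27.8 TPM in control libraries, without overlap (log2 change -0.72, SE 0.26, limma adjusted p = 0.329). Mrpl38 was at 41.5, 36.5 and 67.8 TPM in radiotherapy and 81.6, 106 and 61.7 TPM in control libraries (log2 change -0.78, SE 0.35, adjusted p = 0.358). Mrpl43 was at 24.9, 21.0 and 50.1 TPM in radiotherapy and 51.6, 61.5 and 40.7 TPM in control libraries (log2 change -0.75, SE 0.39, adjusted p = 0.398). In Mrpl38 and Mrpl43 radiotherapy replicate 3 lay above the lowest control library. Mrpl3, near the site of peptide bond formation, was at 12.8, 15.4 and 22.0 TPM in radiotherapy and 28.3, 25.3 and 26.6 TPM in control libraries, without overlap. It was named after its values were seen.

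The stalk is where translation factors bind. Mrpl12, the stalk protein that also binds the mitochondrial RNA polymerase, was at 124, 106 and 103 TPM in radiotherapy and 126, 132 and 126 TPM in control libraries. The groups did not overlap, but the log2 change was -0.21 (SE 0.24, limma adjusted p = 0.668) and its sign turned with median-of-ratios (0.22) and quantile scaling (0.20). Mrpl10, which anchors Mrpl12, was at 20.2, 15.6 and 27.5 TPM in radiotherapy and 24.3, 26.9 and 20.6 TPM in control libraries. Mrpl11, at the stalk base, was at 37.5, 33.3 and 63.3 TPM in radiotherapy and 53.5, 71.6 and 45.2 TPM in control libraries. Their log2 changes were -0.20 for Mrpl10 and -0.37 for Mrpl11, and both turned positive with median-of-ratios and quantile scaling. Both overlapped, with radiotherapy replicates 1 and 2 below every control library and replicate 3 above the lowest.

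Genes of the peptide exit tunnel and of membrane attachment included members on both sides of 0. Mrpl45, which lies at the exit and ties the ribosome to the inner membrane, was at 15.0, 12.3 and 13.6 TPM in radiotherapy and 15.3, 18.5 and 13.6 TPM in control libraries. Mrpl47, the counterpart of bacterial L29 at the exit, was at 13.5, 13.7 and 14.2 TPM in radiotherapy and 10.9, 11.1 and 10.5 TPM in control libraries. All 3 radiotherapy values of Mrpl47 lay above every control (13.8 ± 0.345 and 10.8 ± 0.300 TPM, SD, n = 3 each; log2 change 0.32, SE 0.22, limma adjusted p = 0.495). Mrpl23, also at the exit, was at 13.7, 19.2 and 14.5 TPM in radiotherapy and 14.7, 16.7 and 11.5 TPM in control libraries. Its values are uncertain, because the table lists its processed copy Mrpl23-ps1 at 249 to 297 TPM in radiotherapy and 234 to 388 TPM in control libraries, and Mrpl23 itself held only 4.13% to 7.17% of the sum. With both added, the log2 change was -0.03 in place of 0.13.

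Mrpl48 had the highest log2 change of all members. It was at 33.3, 30.9 and 40.8 TPM in radiotherapy and 24.1, 26.6 and 21.5 TPM in control libraries, without overlap (log2 change 0.52, SE 0.26, adjusted p = 0.389). A copy, Mrpl48-ps, was at 8.53 to 10.5 TPM in radiotherapy and 10.9 to 11.7 TPM in control libraries. Mrpl48 held 64.9% to 82.7% of the sum of both, and the log2 change of that sum was 0.32, so its value is uncertain where the counting could split reads between the copies. Mrpl46 followed at 0.22, with 18.02, 20.1 and 21.5 TPM in radiotherapy and 15.9, 18.3 and 16.5 TPM in control libraries, an overlap through 1 library of each group.

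The remaining large subunit genes of known special roles overlapped between the groups. Mrpl58, which releases peptides from stalled ribosomes, was at 47.2, 46.0 and 84.2 TPM in radiotherapy and 51.3, 105 and 51.6 TPM in control libraries. Mrpl44, a protein with a ribonuclease III fold, was at 10.6, 11.9 and 18.5 TPM in radiotherapy and 18.1, 20.9 and 19.6 TPM in control libraries. Mrpl32, which the m-AAA protease cleaves before it can assemble, was at 25.4, 27.6 and 51.4 TPM in radiotherapy and 40.8, 58.1 and 47.6 TPM in control libraries. In these 3 genes radiotherapy replicates 1 and 2 were below every control library and replicate 3 was not. Mrpl14, at the interface of the subunits, was at 138, 102 and 164 TPM in radiotherapy and 138, 216 and 132 TPM in control libraries. Of the other highly expressed genes, Mrpl30 was at 214, 217 and 180 TPM in radiotherapy and 195, 233 and 213 TPM in control libraries, and Mrpl52 at 260, 237 and 448 TPM in radiotherapy and 279, 330 and 241 TPM in control libraries.

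**Figure D4:**
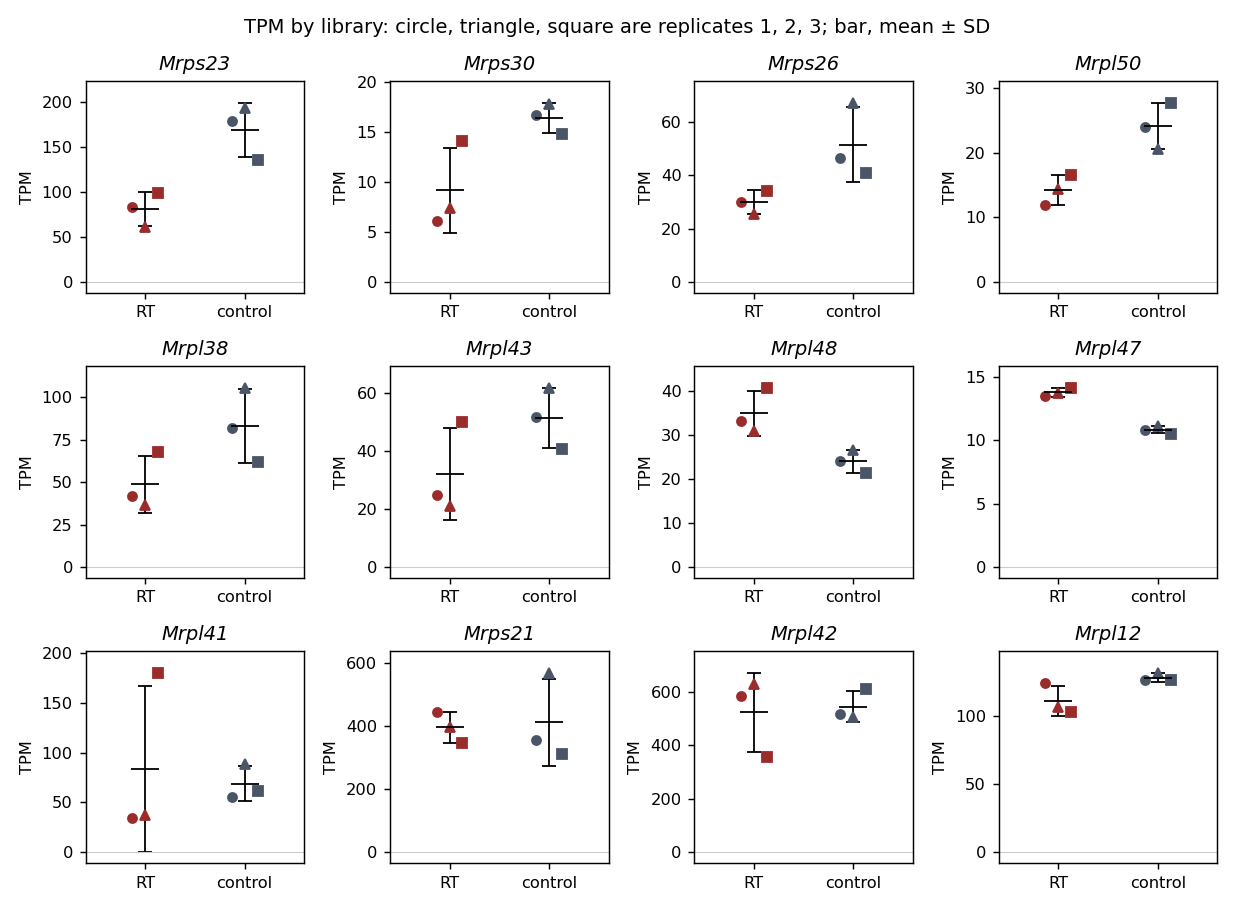
TPM of 12 genes in each library, with circles, triangles and squares for replicates 1, 2 and 3 and bars for the mean ± SD (n = 3 each). Mrps23, Mrps30, Mrps26 and Mrpl50 lie lower in all 3 radiotherapy libraries, Mrpl48 and Mrpl47 higher, and in Mrpl41 radiotherapy replicate 3 (180 TPM) lies above every other library.

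The 44 members outside the panel and the extremes of level and change had log2 changes of -0.68 to 0.11 in the large subunit (31 genes, 27 below 0) and of -0.65 to 0.06 in the small subunit (13 genes, 11 below 0). Of these, 10 large and 2 small subunit genes had radiotherapy libraries all below control, beside 19.3% of all features. The 18 members without overlap that lay lower had log2 changes of -1.06 to -0.21 and limma adjusted p-values of 0.286 to 0.668, and the lowest of the 6 libraries was radiotherapy replicate 2 in 10 of them, replicate 1 in 6 and replicate 3 in 2.

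The number of genes called depended on radiotherapy replicate 3. Without it, 14 members passed as lower with limma at an adjusted p under 0.05 (17.9%) and 0 as higher, beside 27.6% and 1.98% of all tested features. The 14 were 10 large and 4 small subunit genes, led by Mrps23 (log2 change -1.21, adjusted p = 0.0223), Mrps30 (-1.17, adjusted p = 0.0146) and Mrpl43 (-1.11, adjusted p = 0.0233). The median of the members was then -0.41 and that of all features -0.57. In 11 members radiotherapy replicate 3 was the highest of the 6 libraries (14.1%), beside 30.1% of all tested features, and 9 of the 11 are in the large subunit. Among them was Mrpl41, named after its values were seen, at 34.4, 37.3 and 180 TPM in radiotherapy and 55.9, 88.9 and 61.8 TPM in control libraries. In that gene radiotherapy replicates 1 and 2 were the lowest libraries and replicate 3 the highest.

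The 45 members with a bacterial counterpart, by the current naming of ribosomal proteins, had a median log2 change of -0.25. The 31 members that this naming marks as mitochondrial had a median of -0.35. Both classes follow names and not descent, so a relative of a bacterial protein can be among the 31. Subunits are here by gene symbol. All radiotherapy libraries lay below control in 9 of the 45 and in 8 of the 31, beside 19.3% of all features. The order turned within the large subunit, with -0.30 for 29 bacterial and -0.20 for 19 mitochondrial members, while in the small subunit it was -0.16 for 16 and -0.35 for 12. This grouping was made after values had been seen. Mrpl55 and Mrps36 were left out of it.

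The median change of the members did not follow level or transcript length in order. Among 26 members with the lowest, middle and highest levels, the median log2 change was -0.31, -0.39 and -0.22. Among 26 with the shortest, middle and longest annotated transcripts (GENCODE M21) it was -0.21, -0.35 and -0.27. Over all tested features with a length, in 4 groups of near equal size, the median fell in order with length. It was -0.26, -0.35, -0.40 and -0.43 from the shortest to the longest transcripts. Of the members, 47 fell in the shortest group, where their median was also -0.26. In the other groups, from shorter to longer, 12, 13 and 6 members had medians of -0.33, -0.37 and -0.08. The part of length in the margin of the members over all features was not tested. Exons of another annotated gene overlap those of 33 members, 28 of them on the opposite strand, and the table does not say whether strand was used in counting, so their levels may include reads of the neighbour. The 45 members with no such overlap had a median log2 change of -0.34, and 10 of them lay lower and 0 higher in all radiotherapy libraries. The 33 with an overlap had a median of -0.24, and 8 of them lay lower and 2 higher, beside 19.3% and 1.73% of all features. The 2 higher were Mrpl47, whose exons overlap those of Actl6a and Ndufb5, and Mrpl48, whose exons overlap those of Rab6a. These overlaps are on the opposite strand. Mrpl43 shares exon sequence with Twnk, the mitochondrial DNA helicase, which was at 7.88, 7.70 and 9.68 TPM in radiotherapy and 8.96, 7.88 and 7.73 TPM in control libraries.

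Promoters of genes for mitochondrial proteins often hold sites for NRF1, for GABP and other ETS factors, and for YY1. RefSeq windows of 300 bases, from 250 before to 50 after the start, on GRCm38.p6, matched 69 of the 78 members by symbol. The motifs searched on both strands were GCGCANGCG for NRF1 and CCGGAAG for ETS factors such as GABP, both activators of genes for mitochondrial proteins, AAGATGGCG for YY1, GGGCGG for SP1 and CACGTG, the E-box that MYC binds. The ETS letters were in 26 of 69 members (37.7%), in 9.93% of all 27025 genes and in 20.9% of the tested genes with a promoter. Those of NRF1 were in 16 members (23.2%), 7.03% of all genes and 15.8% of tested genes, and those of YY1 in 8 members (11.6%), 1.64% and 3.92%. SP1 letters were in 49.3% of members, 38.2% of all genes and 68.4% of tested genes, and the E-box in 7.25%, 8.09% and 12.3%. At least 1 of the NRF1, ETS and YY1 strings was in 42 members, and matches of different motifs among these did not overlap in any member. The median log2 change was -0.35 in 26 members with the ETS letters and -0.26 in 43 without, and -0.25 in 16 with and -0.33 in 53 without those of NRF1. These matches describe letters and are not shown to be bound.

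The promoters of 3 members with low log2 changes are shown for their matches, and those of Mrps11 and Mrpl46 because their windows overlap. Mrps30 and Mrpl50, also among the 3 lowest log2 changes of their subunit by name, held 0 matches to the NRF1, ETS or YY1 letters. Mrpl38, the lowest of the large subunit, had no window. Capitals mark matches to the NRF1, ETS or YY1 letters on either strand. In Mrps23 (chr11:88204138-88204437, plus strand) an ETS match lies just after the start. Mrps26 (chr2:130563507-130563806, plus strand) holds an ETS match followed by overlapping NRF1 matches, and Mrpl43 (chr19:45006393-45006692, minus strand) holds ETS matches at 2 places.
Mrps23: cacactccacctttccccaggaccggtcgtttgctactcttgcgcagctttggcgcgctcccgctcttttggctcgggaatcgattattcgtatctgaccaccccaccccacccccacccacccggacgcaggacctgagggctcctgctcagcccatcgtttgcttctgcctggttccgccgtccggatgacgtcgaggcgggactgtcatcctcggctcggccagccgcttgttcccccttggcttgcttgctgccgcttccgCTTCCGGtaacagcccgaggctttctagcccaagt
Mrps26: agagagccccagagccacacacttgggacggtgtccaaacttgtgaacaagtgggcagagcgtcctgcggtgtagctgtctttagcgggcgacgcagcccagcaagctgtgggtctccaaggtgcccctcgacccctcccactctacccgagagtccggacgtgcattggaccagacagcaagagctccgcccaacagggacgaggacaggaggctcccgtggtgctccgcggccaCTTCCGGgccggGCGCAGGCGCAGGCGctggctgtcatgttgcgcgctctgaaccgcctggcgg
Mrpl43: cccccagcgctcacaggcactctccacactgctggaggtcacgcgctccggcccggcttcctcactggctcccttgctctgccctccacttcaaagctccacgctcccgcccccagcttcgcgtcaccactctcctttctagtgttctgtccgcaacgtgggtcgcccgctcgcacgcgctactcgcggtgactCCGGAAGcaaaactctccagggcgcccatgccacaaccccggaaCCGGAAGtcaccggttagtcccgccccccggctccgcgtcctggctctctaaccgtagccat
The windows of Mrps11 (chr7:78782881-78783180, plus strand), a small subunit gene, and Mrpl46 (chr7:78783040-78783339, minus strand), a large subunit gene, share 141 bases on opposite strands, the only members whose windows overlap. Mrps11 was at 26.9, 19.8 and 15.2 TPM in radiotherapy and 17.6, 27.4 and 15.0 TPM in control libraries (log2 change 0.05), and Mrpl46 had a log2 change of 0.22. The window of Mrps11 holds a YY1 match outside the shared stretch, and that of Mrpl46 holds none of the marked letters. Mrps11 was highest in control replicate 2 and Mrpl46 in radiotherapy replicate 3, so the 2 did not follow the same order of libraries.
Mrps11: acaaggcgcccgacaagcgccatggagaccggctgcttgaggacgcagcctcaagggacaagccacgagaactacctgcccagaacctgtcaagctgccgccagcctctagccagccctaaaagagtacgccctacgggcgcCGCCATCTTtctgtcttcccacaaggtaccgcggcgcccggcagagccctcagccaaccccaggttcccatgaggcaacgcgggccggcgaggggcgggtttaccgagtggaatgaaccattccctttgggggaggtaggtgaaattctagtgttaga
Mrpl46: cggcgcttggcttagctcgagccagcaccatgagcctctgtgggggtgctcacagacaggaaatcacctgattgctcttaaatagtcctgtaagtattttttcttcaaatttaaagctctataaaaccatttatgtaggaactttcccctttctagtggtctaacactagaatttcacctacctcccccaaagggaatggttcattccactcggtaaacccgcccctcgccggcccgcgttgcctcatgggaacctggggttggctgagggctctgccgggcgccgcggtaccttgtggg

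Of 5 genes for mitochondrial ribosomal proteins with other names, 4 had a log2 change below 0 and 0 passed the test, with a median of -0.19 as deposited, 0.23 with median-of-ratios and 0.20 with quantile scaling. With radiotherapy replicate 3 left out, limma called 0 of the 5, and their median was -0.21. Dap3, the GTP-binding protein of the small subunit, was at 35.8, 31.9 and 43.9 TPM in radiotherapy and 40.6, 51.2 and 36.3 TPM in control libraries. The small subunit RNA mt-Rnr1 was at 1087, 885 and 1716 TPM in radiotherapy and 1182, 1706 and 1406 TPM in control libraries. The large subunit RNA mt-Rnr2 was at 612, 577 and 798 TPM in radiotherapy and 613, 631 and 790 TPM in control libraries. Both overlapped between the groups and were lowest in radiotherapy replicate 2.

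The genes that assemble the mitochondrial ribosome, and those that run translation on it, also gave no call, and their medians lay below 0 under every scaling tried. Of 29 assembly genes, 0 passed, the log2 change was under 0 in 29, beside 78.5% of all features, and 8 (27.6%) lay lower in all radiotherapy libraries, beside 19.3%. Their median was -0.42, beside -0.36 for all features. Without radiotherapy replicate 3, limma called 9 of the 29 lower (31.0%), beside 27.6% of all features, and their median was -0.52, beside -0.57. Mpv17l2 was at 15.1, 10.7 and 21.0 TPM in radiotherapy and 31.4, 46.4 and 21.7 TPM in control libraries, and Ngrn at 11.5, 9.30 and 21.9 TPM in radiotherapy and 27.8, 28.1 and 27.2 TPM in control libraries. Tfb1m, which methylates the small subunit RNA, was at 3.13, 2.40 and 2.61 TPM in radiotherapy and 4.21, 6.57 and 4.46 TPM in control libraries. The groups did not overlap in these 3 genes, which were named for having the smallest limma p of the 29. That choice favours genes without overlap.

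Of 16 translation factors and related genes, 0 passed, the log2 change was under 0 in 13 (81.3%), beside 78.5% of all features, and 6 (37.5%) lay lower in all radiotherapy libraries, beside 19.3%. Their median was -0.49. Without radiotherapy replicate 3, limma called 6 of the 16 lower (37.5%), beside 27.6% of all features, and their median was -0.59. Taco1, an activator of COX1 translation, was at 2.96, 2.15 and 3.09 TPM in radiotherapy and 11.9, 4.99 and 7.85 TPM in control libraries (log2 change -1.25, SE 0.33, limma adjusted p = 0.276). Lrpprc, which stabilises mitochondrial messenger RNAs, was at 5.71, 6.54 and 8.08 TPM in radiotherapy and 12.9, 10.2 and 12.3 TPM in control libraries. Mtrf1, a release factor, was at 4.23, 4.03 and 4.36 TPM in radiotherapy and 7.35, 6.23 and 8.73 TPM in control libraries. Taco1, Lrpprc and Mtrf1 were named for having the smallest limma p of the 16, a choice that favours genes without overlap. Of 15 tested mitochondrial aminoacyl-tRNA synthetases, 13 (86.7%) had a log2 change below 0, 1 (6.67%) lay lower in all radiotherapy libraries and 0 passed, with a median of -0.26 as deposited and 0.14 with median-of-ratios scaling. Leaving radiotherapy replicate 3 out, limma called 1 of them lower, and the median was -0.32.

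Other mitochondrial and ribosomal genes differed in where radiotherapy replicate 3 fell. Cytosolic ribosomal protein genes (79 tested) had a median log2 change of -0.28 as deposited and of 0.14 with median-of-ratios scaling, and stood at -0.47, -0.64 and 0.22 relative to the control mean in radiotherapy replicates 1, 2 and 3. Without radiotherapy replicate 3 their median was -0.55, and limma called 18 lower (22.8%), beside 27.6% of all features. Nuclear-encoded respiratory chain genes (83 tested) had a median of -0.17 as deposited, 0.26 with median-of-ratios, 0.06 with quantile scaling and 0.04 with rescaling, and stood at 0.06, -0.03 and -0.47. Without radiotherapy replicate 3 their median was -0.02, and limma called 4 lower (4.82%). The mitochondrial ribosomal genes stood at -0.31, -0.44 and -0.08, beside -0.53, -0.61 and -0.01 for all features, so being highest in replicate 3 among the radiotherapy libraries is not particular to them. Differences between these lists were not tested. Of 22 genes of general mitochondrial content and biogenesis, 0 passed, the log2 change was under 0 in 22, beside 78.5% of all features, and 9 (40.9%) lay lower in all radiotherapy libraries, beside 19.3%, with a median of -0.63 as deposited and -0.25 with median-of-ratios scaling. Leaving radiotherapy replicate 3 out, limma called 11 of the 22 lower (50.0%), beside 27.6% of all features, and their median was -0.77. Among them Tfam, which packages mitochondrial DNA, was at 8.80, 8.98 and 8.40 TPM in radiotherapy and 16.6, 11.6 and 15.6 TPM in control libraries. It was named from the 3 genes with the smallest limma p of the 22. The summed level of the 22 genes was 1464 to 1919 TPM in radiotherapy and 2304 to 2619 TPM in control libraries.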

How the data were processed

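Sequencing libraries were prepared by the TruSeq RNA protocol, per the labels. The values deposited by the authors are TPM with the same total in every library. HISAT2, StringTie, RSEM and mm9 appear, without versions or roles, per the submitters' processing notes, and which gene annotation was used is not stated. With TPM alone the sequencing depth is unknown, and precision rests on 3 libraries a group.

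Groups came from the labels. Features averaging 1 TPM or more were tested two-sided on log2(TPM + 1) with limma 3.58.1 in R 4.3.3 (empirical Bayes with a trend, no covariates) and Benjamini-Hochberg adjustment over all 11938. This scale understates the change of low genes. An exact permutation test of 3 against 3 libraries cannot go below 0.1. The fit was also run on simulated data with scatter drawn for each gene independently. That simulation held no shift of whole libraries, so it does not bear on such a shift. Values by library are given for a panel chosen by role and, in each subunit, the 3 most abundant genes and the 3 at either end of the log2 change. In the assembly, translation factor and mitochondrial content lists, genes were named from the 3 with the smallest limma p. Members and lists were chosen with earlier results of these data known, and lists are described by counts and medians without a test. Alternatives were other pseudocounts, filters and scalings, the replicate number as a block, another subunit assignment, the Mrpl23 copy added (chosen after seeing the data) and leaving out each library.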

Additional observations from a re-analysis of the deposited data

How the results depend on the processing

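Over all features the counts lower and higher were 2 and 5 as deposited. The lower count was 5 with a pseudocount of 0.1, 1 with a mean of at least 5 TPM, 4 after rescaling to the genes that are neither mitochondrially encoded nor among the 20 highest, and 1 with median-of-ratios or quantile scaling, and the higher count was 3 under both of these. Without a filter on low values limma gave 0 in either direction. Leaving out 1 library gave 0 to 3298 lower and 0 to 236 higher, the highest of both without radiotherapy replicate 3. Members called lower were 0 to 14 when 1 library was left out, all 14 without radiotherapy replicate 3, and 0 otherwise. The replicate block, in which numbers shared by the groups enter the fit, gave 0 features lower and 4 higher and 0 members. After the group mean of each gene was subtracted, same-numbered libraries correlated at -0.05, -0.11 and -0.20. Libraries with different numbers correlated at -0.09 to 0.18. With 3 libraries a group such values cannot decide whether the numbers pair the samples, and the labels do not say.

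The median log2 change of the members was 0.13 with median-of-ratios, -0.086 with rescaling and 0.14 with quantile scaling. For the large subunit these were 0.11, -0.10 and 0.13, and for the small subunit 0.14 with median-of-ratios and 0.14 with quantile scaling. Without a filter the median of all features was -0.05, and the members differed from it by -0.23, since features near 0 TPM then enter.

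Of the 34 genes of the panel and the extremes of level and change, 21 changed direction under some alternative, and the cause was not tested. With median-of-ratios scaling these were Mrpl11 (0.051), Mrpl14 (0.17), Mrpl12 (0.22), Mrpl10 (0.21), Mrpl58 (0.22), Mrpl45 (0.21), Mrpl42 (0.34), Mrpl30 (0.36), Mrps18a (0.00998), Mrps27 (0.044), Mrps18b (0.17), Mrps34 (0.19), Mrps36 (0.19), Mrps15 (0.29), Mrps18c (0.34) and Mrps21 (0.42). With quantile scaling they were Mrpl11 (0.027), Mrpl14 (0.14), Mrpl12 (0.20), Mrpl10 (0.20), Mrpl58 (0.20), Mrpl45 (0.23), Mrpl42 (0.15), Mrpl30 (0.25), Mrps27 (0.061), Mrps18b (0.16), Mrps34 (0.15), Mrps36 (0.16), Mrps15 (0.28), Mrps18c (0.30) and Mrps21 (0.23). With rescaling they were Mrpl58 (0.0059), Mrpl45 (0.0017), Mrpl42 (0.11), Mrpl30 (0.14), Mrps15 (0.073), Mrps18c (0.12) and Mrps21 (0.19). Leaving out 1 library gave log2 changes of Mrpl58 -0.48 to 0.14, Mrpl42 -0.25 to 0.16, Mrpl30 -0.13 to 0.016, Mrpl52 -0.18 to 0.28, Mrpl23 -0.00899 to 0.24, Mrps18b -0.78 to 0.070, Mrps34 -0.46 to 0.0021, Mrps18c -0.17 to 0.074, Mrps21 -0.19 to 0.24, Mrps28 -0.024 to 0.31, Mrps35 -0.071 to 0.39 and Mrps25 -0.11 to 0.59. Adding Mrpl23-ps1 gave Mrpl23 -0.026. Only 3 libraries a group and an unknown depth limit all values.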
